A study of Coturnix japonica with 19 samples.

Results

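The 7 genes described here are the immunoglobulin genes IGLL1 and JCHAIN, the antigen presentation genes B2M and CD74, and the leukocyte genes PTPRC, HCLS1 and IL17REL. They were chosen by symbol with their levels in these samples in view, and all 7 were found among 19562 gene symbols in the table of the quail pituitary. The annotation behind the transcript IDs of the table is not given in the sources used here, and only 4 of the 7 symbols occur in the quail annotation used here (IGLL1, B2M and HCLS1 do not), so the identity of the genes rests on the deposited symbols. Their differences with age and photoperiod are therefore given as descriptions unless a test is named.

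The pituitary of 19 Japanese quail was sequenced as Nanopore cDNA made from polyA RNA. Adult males were collected after 8 weeks on 16L (16 h light and 8 h dark, n = 5) or on 8L (8 h light and 16 h dark, n = 5). The 16L adults had first been kept on short days, so photoperiod in adults goes together with light history and age. Chicks were raised on long days for 5 days and then held on 16L (n = 4) or 8L (n = 5) for 5 days until posthatch day 10, so the photoperiod changed only for the 8L chicks. The study lists a few of the juveniles as female, so age and sex are partly joined. The tissue was the gland with the pars distalis, without the pars tuberalis.

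Immunoglobulin light chains pair with heavy chains in the antibodies of B cells and plasma cells, and the J chain joins IgM and IgA into polymers. Beta-2 microglobulin (B2M) is the light subunit of MHC class I, which shows peptides from inside the cell, and the invariant chain CD74 escorts MHC class II in antigen presenting cells. PTPRC encodes CD45, a phosphatase on the surface of nearly all leukocytes, and HCLS1 encodes an actin-binding adaptor of blood cells. IL17REL is related to the interleukin 17 receptors. In bulk tissue, fewer cells of a type and less RNA per cell cannot be told apart.

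The libraries held 90599 to 4796665 counts, and 5 of the 19 held fewer than 200000, namely 8L adult replicate 2, 16L juvenile replicates 1 and 2, and 8L juvenile replicates 3 and 4. In a library of 90599 counts, 1 count is worth 11.04 CPM (counts scaled to a common library size) before normalization factors, so a gene at 0 in a shallow juvenile may still have been present. The juvenile glands also carried bone and red blood cell transcripts. The summed CPM of 13 osteoblast and osteocyte genes was 104 to 15392 in juveniles and 26.2 to 45.1 in adults, and that of 12 red blood cell genes was 1029 to 11598 in juveniles and 499 to 2186 in adults. The part of this material in the levels below was not tested. The hormone genes of the gland were present throughout, with 6 of them summing to 2465 to 96005 CPM per bird.

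IGLL1 was counted on 51 transcripts, and these did not vary independently. A set of 18 transcripts each reached a total of 448 to 451 counts over the 19 birds, and the other 33 each reached 120 to 132. Within a bird the 18 held nearly the same number. In 16L adult replicate 3 each of the 18 held 160 counts, and the 33 held 31 to 36 each. In 8L adult replicate 1 the 18 held 133 to 135 counts and the 33 held 41 to 45. The gene sum of 12087 counts was thus 26.8 times the sum of the largest transcript in each bird, 451 counts. Equal whole counts on many transcripts can arise when a read is counted on each transcript it fits, and this was not tested. The count on the largest transcript is therefore given beside the sum, since it counts no read more than once. Near-identical immunoglobulin segments can also share reads, and the symbol alone does not separate a rearranged light chain from the surrogate light chain that it names in mammals.

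**Figure D1:**
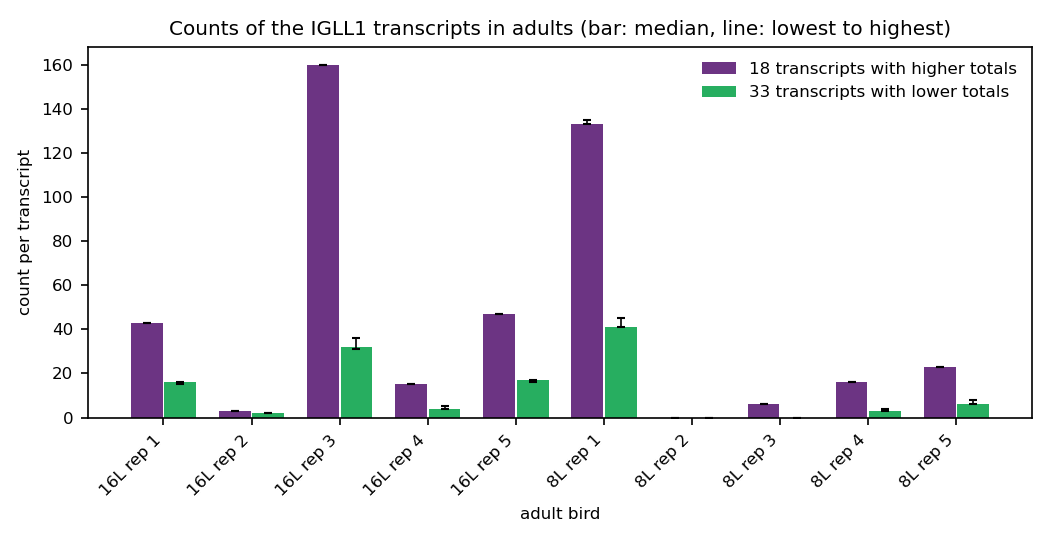
Count per IGLL1 transcript (y axis) in each of the 10 adults (x axis), with the median over 18 transcripts (purple) and over the other 33 (green), and lines from the lowest to the highest transcript of the set. The 2 sets form 2 nearly flat levels in each bird, for example 160 against a median of 32 in 16L replicate 3, and 8L replicate 2 held no count.

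The other genes were affected less or not at all. JCHAIN and B2M each had 1 transcript, so their counts stand as deposited. CD74 had 2 transcripts, with a sum of 201 counts against 132 on the largest. PTPRC had 15 transcripts with a sum of 114 counts but only 13 on the largest, IL17REL had 5 with 58 against 20, and HCLS1 had 5 with 22 against 6. The last 3 genes therefore rest on few molecules.

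IGLL1 was high in most adults and nearly uncounted in juveniles. In the 16L adults the sum stood at 880, 143, 816, 391 and 1104 CPM in replicates 1 to 5 (667 ± 390 CPM, SD, n = 5). In the 8L adults it stood at 2019, 0, 88.4, 466 and 407 CPM (596 ± 820 CPM, SD, n = 5). The spread among 8L adults was wide, and the bird at 0 was the one with the shallowest adult library. All 4 of the 16L juveniles held 0 counts. Of the 8L juveniles, replicate 2 held 36 counts (29.1 CPM), replicate 5 held 1 count (2.37 CPM) and the others held 0. On the largest transcript the juveniles held 3 counts in all, 2 in 8L replicate 2 and 1 in 8L replicate 5, against 448 counts in the adults.

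The pooled level on the largest transcript was 29.8 CPM in adults (95% Poisson interval 27.1 to 32.7) and 0.947 CPM in juveniles (0.195 to 2.77). Their ratio was 31.4 (exact 95% interval 10.7 to 153). Under 8L alone, 180 counts in adults against 3 in juveniles gave a ratio of 23.8 (8.03 to 117). Under 16L alone, 268 counts against 0 gave a level at least 8.95-fold higher in adults, with a floor of 3 counts over the 16L juveniles as a group. These intervals and the floor cover counting error only and leave out the spread between birds. In the edgeR fit across all genes, the juvenile to adult log2 fold change of the IGLL1 sum was -6.80 (SE 1.01), and on the largest transcript it was -4.61 (SE 0.80). Without 8L juvenile replicate 2 the first value was -9.95 (SE 1.19). The edgeR age comparison called 143 of 7165 genes at an adjusted p under 0.05, 2% of those tested, and only IGLL1, B2M and CD74 of the 7 genes had enough counts to enter it. IGLL1 was 1 of the 61 genes lower in juveniles (0.851%), and nothing is read from this because the gene was chosen for its levels.

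**Figure D2:**
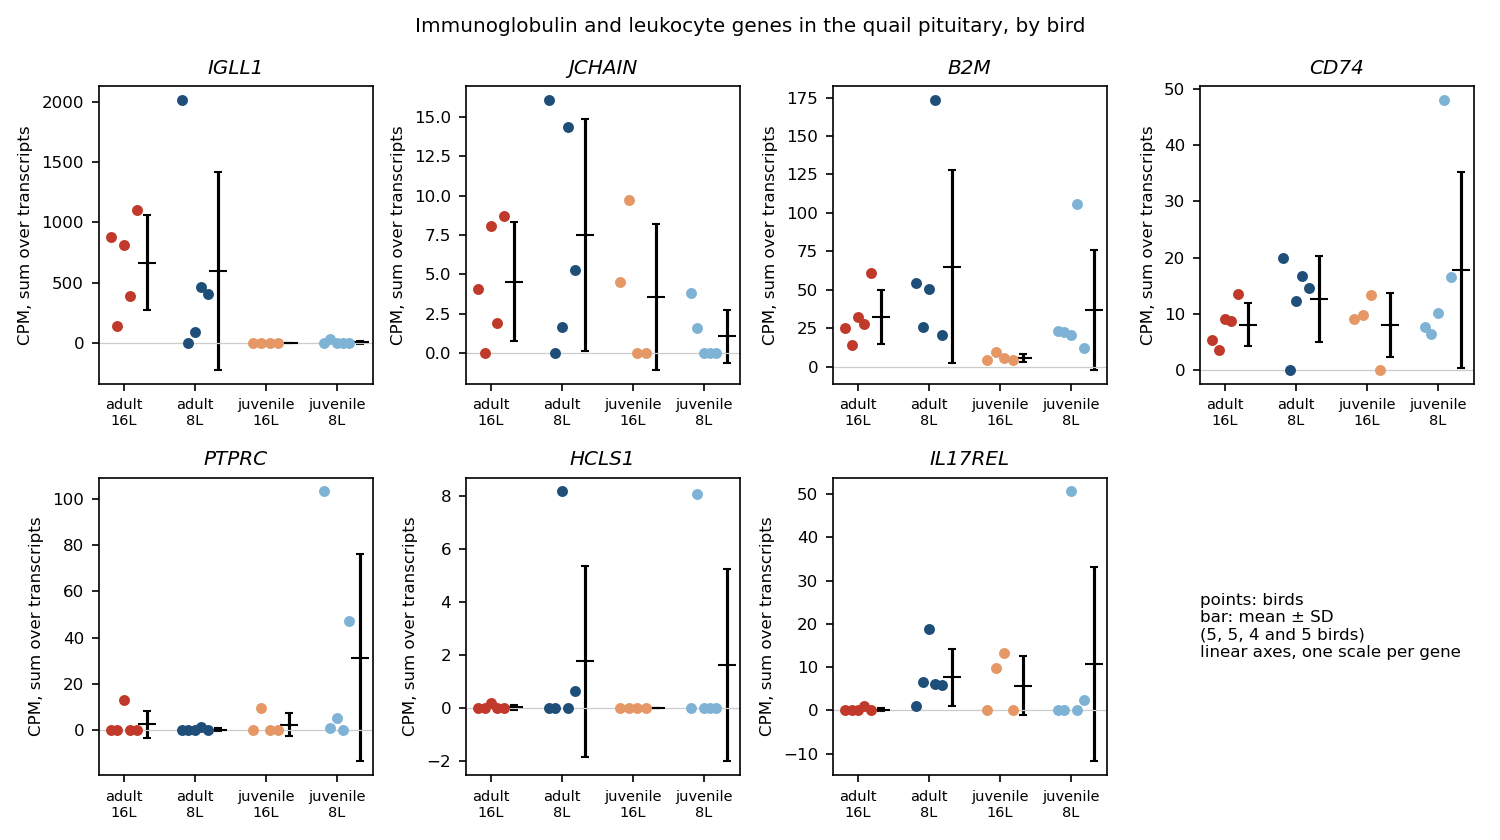
CPM of each of the 7 genes, summed over transcripts (y axis, linear, one scale per gene), in the 4 groups (x axis), with a point per bird and the mean ± SD beside it. IGLL1 reached 2019 CPM in an 8L adult and was 0 in all 4 of the 16L juveniles, while the PTPRC and HCLS1 points away from 0 are few.

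JCHAIN, which adds the joining chain to secreted antibody, was counted in 8 of 10 adults and 4 of 9 juveniles. The 16L adults held 6, 0, 39, 2 and 11 counts (4.55 ± 3.78 CPM, SD, n = 5), and the 8L adults held 30, 0, 2, 12 and 8 (7.48 ± 7.36 CPM, SD, n = 5). The 16L juveniles held 1, 1, 0 and 0 counts, and the 8L juveniles held 1, 2, 0, 0 and 0. Each juvenile value thus came from no more than 2 counts, and the groups overlapped. A single count in 16L juvenile replicate 2 was worth 9.70 CPM, more than the level in any 16L adult, so bird means are poor guides for this gene. Pooled over birds, the level was 7.31 CPM in adults (95% Poisson interval 6.01 to 8.81) and 1.58 CPM in juveniles (0.512 to 3.68), a ratio of 4.63 (1.93 to 14.5). Under 16L alone the ratio was 2.90 (0.769 to 24.6), and under 8L alone it was 6.89 (2.23 to 34.5). These intervals cover counting error only and leave out the spread between birds. JCHAIN had too few counts for the age test.

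The levels of IGLL1 and JCHAIN were compared among the 10 adults. This was examined after the values had been seen, on the log2 CPM scale (prior count 2), as 1 of 6 relations between IGLL1, JCHAIN, B2M and CD74. Pearson's r was 0.76 and Spearman's rho was 0.86. No p is given, because the genes were chosen with their levels in these birds in view. Without the 2 birds farthest from the median of IGLL1, 8L replicates 2 and 3, r was 0.79. With the largest IGLL1 transcript in place of the sum, r was 0.88. Depth moved with these values, since the correlation with the log2 library total was 0.81 for the IGLL1 sum and 0.47 for JCHAIN, and its part in the relation was not tested. Where JCHAIN was counted in an adult, the largest IGLL1 transcript held 1.33 to 7.50 counts per JCHAIN count. With 5 birds at each photoperiod, no value was computed within a photoperiod.

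**Figure D3:**
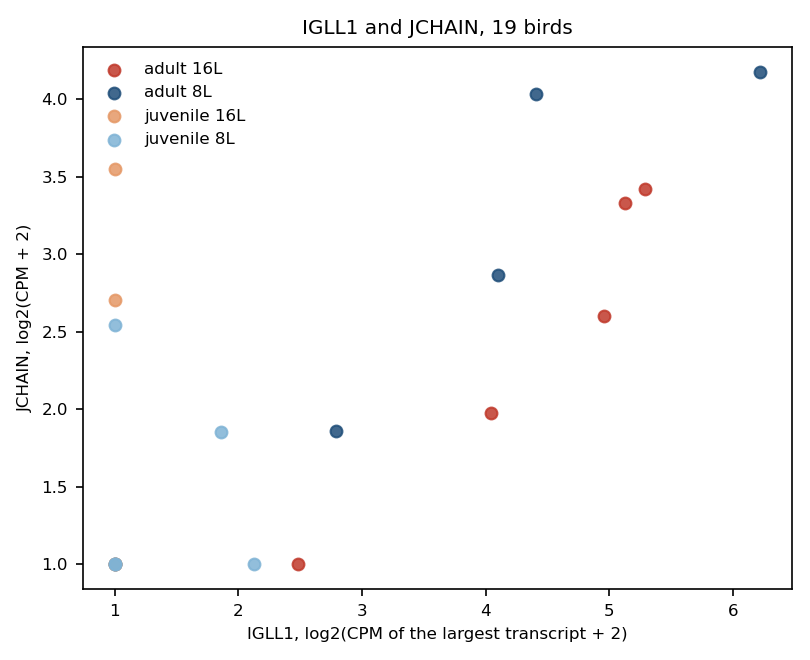
JCHAIN (y axis) against the largest IGLL1 transcript (x axis), each as log2(CPM + 2), with a point per bird coloured by group and points that share a place drawn over each other. The adults spread along a rising diagonal, and 7 of the 9 juveniles sit at the left edge because they held 0 IGLL1 counts.

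In the same adults JCHAIN and CD74 gave r = 0.80 (rho 0.86), and JCHAIN and B2M gave r = 0.68 (rho 0.69). Without the 2 birds farthest from the median of JCHAIN, 16L replicate 2 and 8L replicate 2, these fell to 0.61 and 0.57. IGLL1 and B2M gave r = 0.27 (rho 0.43), and B2M and CD74 gave r = 0.55 (rho 0.65). IGLL1 and CD74 gave r = 0.82 (rho 0.59). That value rested on 8L adult replicate 2, since r was 0.38 without it. The largest transcript gave the same directions.

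No tested gene of the B cell and plasma cell list was called with age. Of 26 listed genes 13 were found and 7 of these held 20 counts or fewer over all birds, among them PAX5, the B cell identity factor, with 13 counts and MZB1, a chaperone of plasma cells, with 4. Only 3 of the list were tested with age and 0 were called by edgeR in either direction, against 2% of all genes. Their median log2 fold change was -0.16, beside -0.18 over all genes tested. SYK, the kinase downstream of the B cell receptor, stood at 48.3 ± 20.8 CPM in adults (SD, n = 10) and 26.5 ± 27.2 CPM in juveniles (SD, n = 9), with an adjusted p of 0.484 in the edgeR test. XBP1, a transcription factor of the unfolded protein response that plasma cells and other secretory cells use, stood at 35.7 ± 6.87 and 32.7 ± 17.2 CPM (edgeR adjusted p = 0.878). EBF1, the other tested gene, went the opposite way, at 59.5 ± 26.8 and 83.7 ± 69.3 CPM in the same order. Its log2 fold change was 0.41 (SE 0.48, edgeR adjusted p = 0.790). The summed CPM of the 13 genes, each on its largest transcript, was 50.0 to 76.7 in adults and 28.9 to 104 in juveniles, so the ranges overlapped. XBP1, SYK and EBF1 carried most of this sum, with 634, 250 and 191 counts over all birds on the largest transcript. The overlap thus describes mainly these 3 genes.

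Genes with a pattern like IGLL1 over the 19 birds were sought among 6454 named genes that passed the count filter of the age comparison. Of 133 genes found from the 8 leukocyte and interferon lists only 32 passed, and JCHAIN did not. Leukocyte markers were thus mostly outside the search. By Pearson's r of log2 CPM the closest genes were NIN (r = 0.94), PHACTR1 (0.93) and PUS7 (0.93). They encode a centrosome protein, an actin and phosphatase regulator and a pseudouridine synthase. NIN stood at 44.5 ± 17.8 CPM in adults (SD, n = 10) and 4.11 ± 10.97 CPM in juveniles (SD, n = 9). These genes carry 10, 15 and 14 transcripts, so their counts are sums of many transcripts like that of IGLL1. In juveniles most of their counts came from 8L replicate 2, the juvenile with the deepest library, with 41 for NIN, 52 for PHACTR1 and 49 for PUS7. In 8L adult replicate 2, the shallowest adult library, NIN, PHACTR1 and PUS7 each held 0 counts, as did IGLL1. The part of depth in these correlations was not tested.

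B2M was counted in every bird. The 16L adults stood at 25.1, 14.3, 32.4, 28.0 and 60.9 CPM (32.1 ± 17.4 CPM, SD, n = 5) and the 8L adults at 54.7, 26.0, 50.8, 174 and 20.4 CPM (65.1 ± 62.5 CPM, SD, n = 5). The 16L juveniles stood at 4.51, 9.70, 5.30 and 4.07 CPM (5.90 ± 2.59 CPM, SD, n = 4), each from 1 or 2 counts. The 8L juveniles stood at 22.96, 22.7, 20.3, 106 and 11.8 CPM (36.7 ± 38.9 CPM, SD, n = 5), from 6, 28, 4, 11 and 5 counts. The 16L juveniles were thus below every adult and below every 8L juvenile, while 4 of the 5 8L juveniles lay within the range of the adults and replicate 5 lay below every adult. The juvenile to adult log2 fold change was -1.56 (SE 0.53), with an edgeR adjusted p of 0.161, so B2M was not called. On the largest transcript per gene, which changes how many genes are tested and their normalization, the adjusted p was 0.0441. These values are a description because the gene was chosen for its levels. The fold change was -2.21 (SE 0.55) without the libraries under 200000 counts and -2.04 (SE 0.46) without 8L juvenile replicate 4, the highest juvenile.

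Pooled over birds, B2M in 16L juveniles was at 0.217 times its level in 8L juveniles (exact 95% counting interval 0.0677 to 0.538), from 5 counts against 54. It had too few counts for the juvenile photoperiod test. That test called 0 of 2405 genes (0%) with edgeR, DESeq2 and limma-voom alike, and 44 genes were at an unadjusted edgeR p under 0.05. In adults the 16L to 8L log2 fold change of B2M was -1.05 (SE 0.55, edgeR adjusted p = 1.00), and the groups overlapped. The edgeR comparison of adult photoperiods called 2 of 7478 genes (0.0267%). The difference in the photoperiod response between ages was -1.52 (SE 1.08, edgeR adjusted p = 0.989).

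Of the 3 genes most like B2M over the 19 birds, 2 belong to the interferon response. They were IFI6 (r = 0.88), TERB2 (0.88) and OASL (0.86). IFI6 and OASL are induced by interferon and are on the interferon list, while TERB2 is a meiotic telomere protein. Among adults IFI6 was highest in 8L replicate 4, with 984 counts (1179 CPM), ahead of 16L replicate 1, with 512 counts (347 CPM). Among juveniles it was highest in 8L replicate 4, with 79 counts (760 CPM). Adult and juvenile 8L replicate 4 also had the highest B2M of the adults and of the juveniles. The adult with the second highest IFI6, 16L replicate 1, was not high in B2M, at 25.1 CPM beside an adult median of 30.2 CPM. No p is given for these likenesses, which come from points that share libraries and groups.

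**Figure D4:**
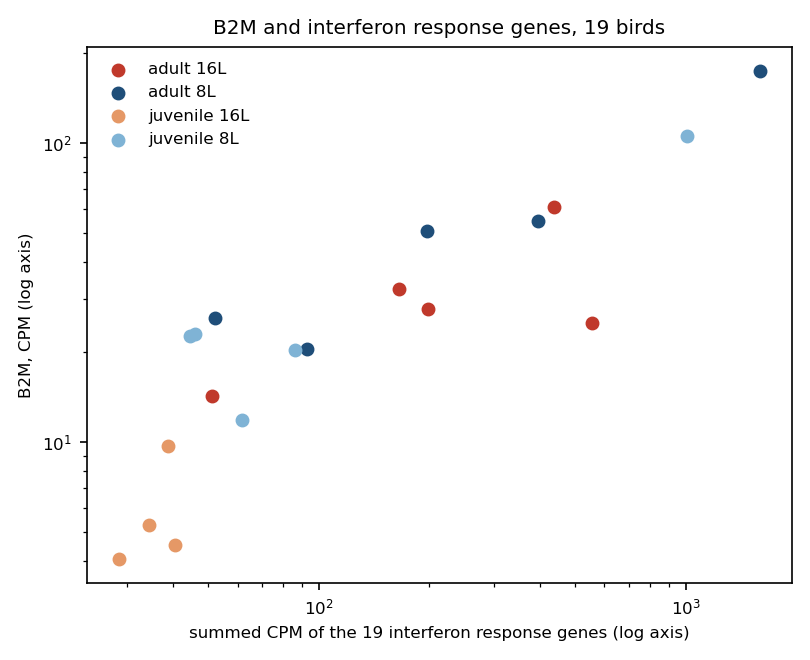
B2M in CPM (y axis, log) against the summed CPM of 19 interferon response genes, each on its largest transcript (x axis, log), with a point per bird coloured by group. The 4 juveniles on 16L sit lowest with 4.07 to 9.70 CPM of B2M, and 8L adult replicate 4 and 8L juvenile replicate 4 sit highest on both axes with 1593 and 1010 CPM on the x axis.

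Of 20 listed interferon response genes 19 were found and 8 were tested with age, and only MX1 was called by edgeR (0 higher and 1 lower, where 0.851% of all genes were called lower). A gene counted in the adults alone, whose libraries were mostly deeper, could pass the filter on low counts, so no direction is read from the genes that passed. Those that did not pass went both ways. IFI35 had a mean of 4.78 CPM in 16L and 5.34 CPM in 8L adults and of 5.62 and 9.95 CPM in 16L and 8L juveniles. In the same order IRF7 had means of 2.15, 3.05, 0 and 4.28 CPM. RSAD2 had 1.06, 1.74, 0 and 0 CPM, and SAMHD1 had 3.00, 4.01, 0.663 and 0 CPM. MX1, an antiviral GTPase, held 282, 7, 122, 10 and 96 counts in the 16L adults, 38, 0, 41, 212 and 18 in the 8L adults, and 1 count each in 16L juvenile replicate 4 and 8L juvenile replicate 2 among the 9 juveniles. It stood at 63.0 ± 87.9 CPM in adults (SD, n = 10) and 0.542 ± 1.35 CPM in juveniles (SD, n = 9), and its log2 fold change was -6.41 (SE 1.13, edgeR adjusted p = 0.00252). With limma-voom the adjusted p was 0.0662, in a range of 5.8e-06 to 0.0662 over 27 alternatives, and with the largest of its 7 transcripts MX1 had too few counts to be tested.

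IFI6, with 1 transcript, stood at 246 ± 349 CPM in adults (SD, n = 10) and 93.9 ± 250 CPM in juveniles (SD, n = 9). Its log2 fold change was -2.59 (SE 1.18, edgeR adjusted p = 0.344). Without 8L juvenile replicate 4 it was -4.91 (SE 0.96, edgeR adjusted p = 0.00716, in a range of 0.00716 to 0.671 over 28 alternatives). IFIT5 and OASL, with 7 and 11 counts in that bird, gave edgeR adjusted p-values of 0.337 and 0.396 with it. Without it these were 0.0456 and 0.0326, in ranges of 0.0456 to 0.68 and 0.0326 to 0.692 over 28 alternatives each. ZC3HAV1, an antiviral zinc finger protein, had a log2 fold change of -2.32 (SE 0.71, edgeR adjusted p = 0.113). The summed CPM of the list was 51.2 to 1593 in adults and 28.5 to 1010 in juveniles, and without 8L juvenile replicate 4 the highest juvenile was at 86.2. In adults, 0 genes of the list were called between photoperiods.

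The class I genes, like B2M, did not pass the edgeR test with age. Of 16 listed genes 12 were found and 6 were tested, 0 were called, and the median log2 fold change was -0.68, beside -0.18 over all genes. BF2, a class I heavy chain of the fowl MHC and hence a partner of B2M, stood at 51.8 ± 41.4 CPM in adults (SD, n = 10) and 28.8 ± 14.8 CPM in juveniles (SD, n = 9), with a log2 fold change of -0.84 (SE 0.43, edgeR adjusted p = 0.414). BF1 had -0.64 (SE 0.50, edgeR adjusted p = 0.652), and reads may be split between these near-identical genes. Both were highest in 8L adult replicate 4, at 163 and 273 CPM, the adult with the highest B2M. CALR and TAPBPL, which help load class I with peptide, had log2 fold changes of -0.78 (SE 0.41, edgeR adjusted p = 0.427) and -0.73 (SE 0.41, 0.476).

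CD74 differed little with age. The 16L adults stood at 5.42, 3.57, 9.08, 8.68 and 13.4 CPM (8.04 ± 3.79 CPM, SD, n = 5), and the 8L adults at 19.9, 0, 12.3, 16.8 and 14.5 CPM (12.7 ± 7.62 CPM, SD, n = 5). The 16L juveniles stood at 9.03, 9.70, 13.3 and 0 CPM (8.00 ± 5.64 CPM, SD, n = 4), and the 8L juveniles at 7.65, 6.47, 10.1, 48.1 and 16.6 CPM (17.8 ± 17.4 CPM, SD, n = 5). All 4 groups overlapped, and the highest value, in 8L juvenile replicate 4, came from 5 counts. The juvenile to adult log2 fold change was 0.05 (SE 0.51), and it was -0.23 (SE 0.44) on the largest transcript and -0.50 (SE 0.51) without the libraries under 200000 counts. On pooled sums the adult to juvenile ratio was 1.11 (exact 95% counting interval 0.758 to 1.68). In adults 4 of the 5 birds on 8L stood above 12 CPM against 1 of the 5 on 16L, with a 16L to 8L log2 fold change of -0.81 (SE 0.47, edgeR adjusted p = 1.00). The difference in the photoperiod response between ages was -0.07 (SE 1.06, edgeR adjusted p = 1.00).

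The class II genes did not pass the test with age. Of 21 listed genes 15 were found and 3 were tested, and 0 were called. BLB1 and BLB2, class II beta chains of the fowl MHC and close copies of each other, stood at 8.98 ± 5.03 and 10.7 ± 5.32 CPM in adults (SD, n = 10) and at 6.11 ± 6.93 and 8.05 ± 10.6 CPM in juveniles (SD, n = 9). Their means were 1.79 and 1.33 CPM in 16L juveniles, from 2 counts each, and 9.57 and 13.4 CPM in 8L juveniles. Their log2 fold changes were -0.72 (SE 0.56, edgeR adjusted p = 0.65) and -0.63 (SE 0.59, 0.725). LGMN, a lysosomal protease that trims antigen and the invariant chain, had -0.52 (SE 0.41, edgeR adjusted p = 0.648). The summed CPM of the 15 class II genes, each on its largest transcript, was 28.6 to 81.5 in adults. It was 9.70 to 36.1 in 16L juveniles and 40.6 to 77.2 in 8L juveniles, a difference that was not tested. These juvenile sums rest on few counts. The 9.70 CPM of 16L replicate 2 was the worth of 1 count in that library. In 8L replicate 3, which stood at 40.6 CPM, 1 count was worth 5.07 CPM. The genes most like CD74 over the 19 birds were KRR1 (r = 0.82), ACTR3 (0.80) and RNF141 (0.77). None of these is on an antigen presentation list, but only the 3 tested class II genes and the 6 tested class I genes were searched. Only 1 of the 3 genes most like CD74 stayed with a prior count of 5 in place of 2.

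PTPRC was counted in 7 of 19 birds, mostly juveniles on 8L. Among adults, 16L replicate 3, the deepest library, held 63 counts over the 15 transcripts and at most 5 on any of them, 8L replicate 4 held 1 count, and the other 8 held 0. Among juveniles, 16L replicate 2 held 1 count and the other 16L birds held 0. The 8L juveniles held 27, 1, 1, 0 and 20 counts, of which the largest transcript carried 2, 1, 1, 0 and 2. The birds with 27 and 20 counts, 8L replicates 1 and 5, were also those with the most bone transcripts, and the part of bone material in their PTPRC counts was not tested. On the largest transcript the pooled level was 0.399 CPM in adults (95% Poisson interval 0.146 to 0.868) and 2.21 CPM in juveniles (0.888 to 4.55), from 6 and 7 counts.

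The genes most like PTPRC over the 19 birds were COL10A1 (r = 0.84), FAP (0.79) and CTSC (0.79). COL10A1 is a collagen of hypertrophic cartilage and stood at 112 ± 229 CPM in juveniles (SD, n = 9) and 2.94 ± 1.89 CPM in adults (SD, n = 10). FAP is a protease of activated fibroblasts and CTSC a lysosomal protease that activates granule proteases of leukocytes. Of these 3, 1 stayed with a prior count of 5. Of the 32 other pan-leukocyte genes listed, 23 were found, 12 of them with 20 counts or fewer, 4 were tested and 0 were called by edgeR. SPI1, a factor of the myeloid and B cell lineages, stood at 15.7 ± 20.8 CPM in juveniles (SD, n = 9) and 2.91 ± 3.00 CPM in adults (SD, n = 10), with a log2 fold change of 2.14 (SE 0.72, edgeR adjusted p = 0.164). CD44, which osteoclasts and other cells also carry, had 1.92 (SE 1.13, edgeR adjusted p = 0.502) on a sum over 37 transcripts that was 26.6 times its largest.

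HCLS1 was at the limit of detection. It was counted in 4 of 19 birds, with 10 counts in 8L adult replicate 3, 10 in 8L juvenile replicate 2, and 1 each in 16L adult replicate 3 and 8L adult replicate 5. The values of 10 were 2 counts on the largest of 5 transcripts. All 4 of the 16L juveniles held 0, where 3 counts over the group would have been 3.17 CPM. A difference between the groups was not detectable at this depth.

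IL17REL was counted in more of the 8L adults than of the 16L adults. Of the 16L adults only replicate 4 held a count, and that was 1 count (0.965 CPM). The 8L adults held 2, 1, 23, 5 and 9 counts (7.67 ± 6.62 CPM, SD, n = 5). In counts the groups met, since 8L replicate 2 held 1 count like 16L replicate 4. In summed CPM they were parted only by 0.965 CPM in 16L replicate 4 against 1.07 CPM in 8L replicate 1. How many of all genes part the adult groups in this way was not counted, so nothing is read from it. On the largest transcript the 8L adults held 1, 1, 8, 2 and 2 counts. There the groups overlapped, with 0.537 CPM in 8L replicate 1 below the 0.965 CPM of 16L replicate 4. On that transcript the pooled level was 0.0422 times as high in 16L as in 8L (exact 95% counting interval 0.000998 to 0.277), from 1 count against 14. IL17REL had too few counts to enter the adult test. With no filter it was not called, at a 16L to 8L log2 fold change of -5.22 (SE 1.07, edgeR adjusted p = 0.126). Its adult levels are a description because the gene was chosen with the group levels in view. In juveniles it did not separate the photoperiods. The 16L juveniles held 0, 1, 5 and 0 counts and the 8L juveniles 0, 0, 10, 0 and 1. The highest level, 50.7 CPM in 8L juvenile replicate 3, was 2 counts on the largest transcript. The genes most like it, SDE2 (r = 0.69), COPS5 (0.62) and NFIL3 (0.61), had lower correlations than those of the other genes, and 1 of the 3 stayed with a prior count of 5.

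Of the interleukin 17 list, with 14 genes, 8 were found and 3 were tested with age. IL17RD, a receptor family member that also restrains FGF signalling, was the only one called by edgeR (1 lower, 0 higher, beside 0.851% of all genes called lower and 1.14% called higher). It held 0, 32, 116, 30 and 20 counts in the 16L adults and 14, 0, 20, 13 and 33 in the 8L adults, and 1 count in the 9 juveniles, so it entered the test through the adults. Its level was 16.8 ± 12.2 CPM in adults (SD, n = 10) and 0.295 ± 0.884 CPM in juveniles (SD, n = 9), with a log2 fold change of -5.14 (SE 1.00, edgeR adjusted p = 0.0056). With limma-voom the adjusted p was 0.189, in a range of 0.000241 to 0.189 over 27 alternatives, and with the largest of its 7 transcripts, on which no bird held more than 18 counts, it was not tested. TRAF6, a ubiquitin ligase downstream of these receptors, had a log2 fold change of -0.35 (SE 0.69, edgeR adjusted p = 0.882).

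**Figure D5:**
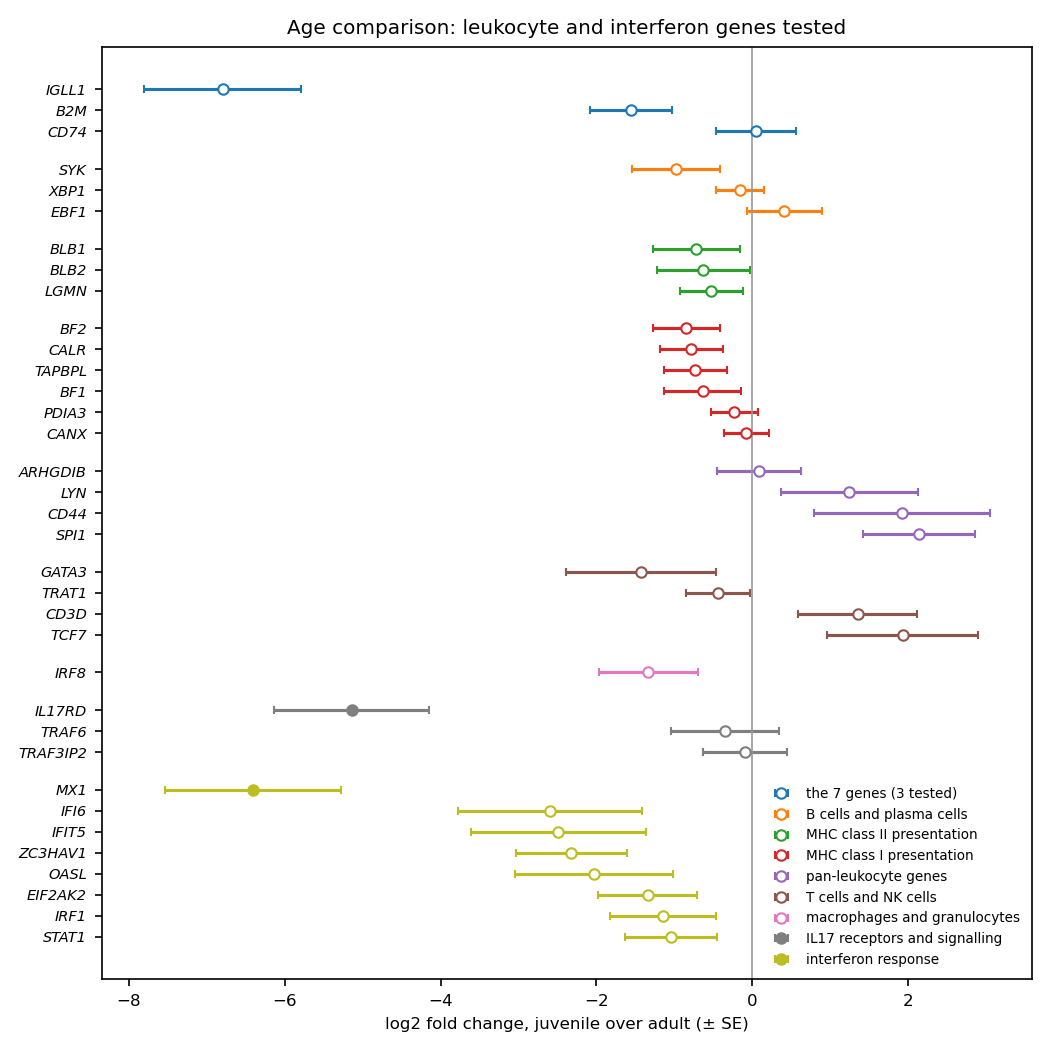
Juvenile to adult log2 fold change ± SE (x axis) of every gene of the 8 leukocyte and interferon lists that was tested, with IGLL1, B2M and CD74 at the top, coloured by list, and filled points for list genes at an adjusted p under 0.05. IL17RD (-5.14) and MX1 (-6.41) are filled, and both held no more than 2 counts in all over the 9 juveniles. The 32 list genes plotted are those that passed the filter on low counts, out of 133 found.

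Most T cell and macrophage genes gave few counts. Of 27 T cell and NK cell genes 22 were found, 15 of them with 20 counts or fewer, 4 were tested and 0 were called. CD3D, a chain of the T cell receptor complex, stood at 5.01 ± 5.77 CPM in adults (SD, n = 10) and 15.8 ± 21.4 CPM in juveniles (SD, n = 9), with a log2 fold change of 1.35 (SE 0.77, edgeR adjusted p = 0.477). TCF7, a T cell factor, had 1.93 (SE 0.97, edgeR adjusted p = 0.397) and GATA3 had -1.43 (SE 0.97, 0.581). TRAT1, the most counted gene of this list, stood at 97.3 ± 47.5 CPM in adults and 72.4 ± 68.0 CPM in juveniles. Its log2 fold change was -0.44 (SE 0.41, edgeR adjusted p = 0.725). Of 29 macrophage and granulocyte genes 21 were found and only IRF8 was tested, at 23.5 ± 15.4 CPM in adults (SD, n = 10) and 9.02 ± 6.86 CPM in juveniles (SD, n = 9) (log2 fold change -1.33, SE 0.64, edgeR adjusted p = 0.37). The summed CPM of the macrophage list was 12.997 to 40.7 in adults and 13.3 to 137 in juveniles.

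Over the 8 lists together, 133 of 185 genes were found, 59 of them with 20 counts or fewer, and 32 were tested with age. Of these 2 were called lower in juveniles and 0 higher, beside 0.851% and 1.14% of all genes. The 2 were MX1 and IL17RD, which held 2 and 1 counts over the 9 juveniles and entered the test through the adults. No excess and no direction is read from them. With the largest transcript of each gene 21 were tested and 0 were called. In adults 31 were tested between photoperiods and 0 were called by edgeR, in juveniles 8 were tested and 0 were called, and in the interaction 32 were tested and 0 were called, beside 0.0267%, 0% and 0% of all genes. The interaction test called 0 of 7165 genes with edgeR, where 414 were at an unadjusted p under 0.05, while DESeq2 called 7 and limma-voom 1. The interaction of IGLL1 was -6.38 (SE 3.56, edgeR adjusted p = 0.927). In adults the 16L to 8L log2 fold change of IGLL1 was 0.16 (SE 0.87, edgeR adjusted p = 1.00), and its sign turned to -0.12 (SE 0.55) on the largest transcript.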

How the data were processed

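Pituitary polyA RNA of 19 birds was sequenced on a GridION with a PCR-cDNA barcoding kit. By the study's methods, reads were called with guppy, trimmed with Porechop, filtered with Filtlong, aligned to a quail genome and quantified with Salmon, and minimap2 and Salmon are named in the submitters' processing notes. The authors deposited estimated counts per transcript (63260 transcripts), of which 97.2% to 99.5% per library were whole numbers. The annotation behind the transcript IDs is not given in the sources used here. No transcript accession and 4 of the 7 gene symbols matched the quail annotation used here, so the genes are identified by the deposited symbols alone, no coordinates are given, and no sequences were used.

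The estimated counts were summed by gene symbol (19562 symbols), rounded and tested with edgeR 4.0.16 (R 4.3.3), using filterByExpr (minimum count 10, minimum total 15), TMM factors, quasi-likelihood F-tests and Benjamini-Hochberg adjustment over all genes tested. CPM used TMM factors. Age was fitted with photoperiod as a term over all birds, photoperiod within each age, and the interaction over all birds. A gene was called at an adjusted p under 0.05. Where transcripts of a gene hold equal counts, a sum can count a read more than once, so the largest transcript per gene was added as an alternative after the data had been seen. DESeq2 1.42.0, limma-voom (limma 3.58.1), RLE factors, other filters, a replicate block, the 2 blocks of birds in the study's table and left-out libraries were the other alternatives. Pooled levels have exact Poisson intervals at 95%, which cover counting error only.

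Replicates are separate birds. The libraries held 90599 to 4796665 counts. The fits were tested on simulated data. Of 4-fold changes, the age fit recovered 62.8%, the adult photoperiod fit 70.3% and the juvenile photoperiod fit 16.7%. Of 16-fold changes these fits recovered 98.2%, 100% and 62.5%. A difference that was not called may thus have been missed, most of all between juvenile photoperiods. The 7 genes and the lists were chosen with earlier results of these data known. List genes were named by the smallest p with age (up to 4 a list), by any call, and by level (2 a list). The genes most like one over 5 CPM were those with the 3 highest Pearson r. Only named genes that passed the filter of the age comparison were searched for these. List genes with estimates near 0 are given by count.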

Additional observations from a re-analysis of the deposited data

Results flagged for a closer look

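In 26 groups of 4 or 5 birds, a bird was marked where its gap to the next, on the log2 CPM scale (prior count 2), passed Dixon's 95% value. For normally spread values chance marks about 1 group in 20, a rate that need not hold for counts this low. There were 12 such values, and in 6 of them the other birds of the group held 0 counts, where even a single count is marked. The number marked is therefore not set against chance.

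IGLL1 in 8L juvenile replicate 2 stood at 29.1 CPM, above the other 8L juveniles. This bird had the deepest juvenile library and held 2 counts on the largest IGLL1 transcript. B2M in 8L juvenile replicate 4 stood at 106 CPM from 11 counts, in the bird whose interferon genes summed to 1010 CPM. CD74 was at 0 CPM in 8L adult replicate 2 and at 0 CPM in 16L juvenile replicate 4, with libraries of 128509 and 234166 counts.

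PTPRC stood apart in 16L adult replicate 3 at 13.001 CPM, in 8L adult replicate 4 at 1.20 CPM and in 16L juvenile replicate 2 at 9.70 CPM, the last 2 from 1 count each. HCLS1 stood apart in 8L adult replicate 3 at 8.19 CPM, in 8L juvenile replicate 2 at 8.09 CPM and in 16L adult replicate 3 at 0.206 CPM. IL17REL stood apart in 8L juvenile replicate 3 at 50.7 CPM and in 16L adult replicate 4 at 0.965 CPM.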

How the results depend on the processing

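The age comparison called 143 genes, and 399 with DESeq2, 364 with no filter and 57 where every library of a group had to hold 10 counts. With 1 library left out it called 86 to 207, the lowest counts being 86, 92 and 95 without 8L adult replicates 1, 3 and 5. Among genes of the 8 leukocyte lists, MX1 and IL17RD were called with age, and the count was 0 with limma-voom, 0 under the stricter filter, 0 on the largest transcript, 4 with no filter, 5 without libraries under 200000 counts and 2 to 5 with 1 library left out. It was 4 without 16L juvenile replicate 2, 3 or 4 and 5 without 8L juvenile replicate 4. MX1 and IL17RD fell to log2 fold changes of -3.69 and -2.71 with limma-voom. ZC3HAV1 was called with DESeq2 (-2.49, adjusted p = 0.0354) and without 8L juvenile replicate 2 (-3.57), and IFI6 without libraries under 200000 counts (-6.10). The adult photoperiod comparison called 2 genes, and 10 with DESeq2, 1 with limma-voom, 5 with no filter, 4 on the largest transcript and 1 to 4 with 1 library left out, with 1 without 16L replicates 1, 4 or 5 or 8L replicates 1 or 5. The interaction called 0 genes, and 7 with DESeq2, 1 with limma-voom, 5 without libraries under 200000 counts, 1 on the largest transcript and 0 to 3 with 1 library left out. The adult 16L to 8L log2 fold change of IGLL1, 0.16, turned to -0.12 on the largest transcript and to -0.12 without libraries under 200000 counts, and ran from -0.12 to 1.43 with 1 adult left out. The IGLL1 mean of the 16L adults was 23.5 CPM on the largest transcript. The juvenile to adult value of IGLL1 ran from -9.95 to -5.99, and that of B2M from -2.04 to -1.17, with 1 library left out. On the largest transcript the correlation of B2M and CD74 in adults was 0.62, against 0.55 on sums. The cause was not tested for any of these. Same-numbered birds did not deviate together (27 pairs, r of -0.10 to 0.09), so the numbers do not pair the birds. With the replicate block the adult photoperiod comparison called 1 gene and the age comparison 96.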

Other observations

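Genes called lower in juveniles carried more transcripts than other genes. The 61 genes lower in juveniles had a median of 5 transcripts and 54.1% had 5 or more, against 40.3% of the 7165 tested genes and 21.95% of the 82 genes higher in juveniles. On the largest transcript per gene, 26 of the 61 had enough counts to be tested and 22 were called, against 60 tested and 60 called of the 82.

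TBXAS1, thromboxane synthase, a gene of the thrombocyte list, shows how such sums are built. Its 8 transcripts gave 96, 32, 56, 32 and 64 counts in the 16L adults and 64, 1, 8, 16 and 32 in the 8L adults, where the largest transcript held 12, 4, 7, 4 and 8 and then 8, 1, 1, 2 and 4. The juveniles held 8 counts in 8L replicate 2 and 1 in 8L replicate 5. Its log2 fold change with age was -3.50 (SE 0.66, edgeR adjusted p = 0.00477), and on the largest transcript it had too few counts to be tested. TBXAS1 entered the test on sums through the adults, so no direction is read from it. Over all genes with 2 or more transcripts, every transcript held the same count (within 0.5) in 30.5% of the gene and library pairs with a count, and the sums were 4.72 times the largest transcripts.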
